A study of Sus scrofa with 6 samples.

Results

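The subunits of oxidative phosphorylation (OXPHOS) were followed from porcine embryonic fibroblasts (PEFs) to porcine induced pluripotent stem cells (piPSCs). Subunits were taken by gene name. The names were those beginning with NDUFA, NDUFB, NDUFC, NDUFS or NDUFV and a digit, SDHA to SDHD, names beginning with UQCR, COX4 to COX8 or ATP5, CYC1, and the protein-coding genes of the mitochondrial genome. This gave 63 of the 18007 genes in the table, 51 encoded in the nucleus and 12 in the mitochondrial genome. The rule reads names and no expression values. CYC1 and the mitochondrial gene ATP8 were not analysed here. A mean FPKM (fragments per kilobase of gene, scaled to library size) of at least 0.5 was required for the test, and 62 of the 63 genes passed it.

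RNA of PEF5, PEF7 and PEF8, 3 fibroblast lines, was compared with RNA of piPSC5, piPSC7 and piPSC8 (ips5, ips7 and ips8 in the labels), each derived from the fibroblasts of the same number, with 1 library per line. The fibroblasts were grown from ear tips of embryos taken at day 90 from a Meishan sow mated to a boar that the labels call Longwhite. They were untreated, and the piPSCs were obtained from them with lentiviral OCT4, SOX2, KLF4 and MYC under doxycycline control and were kept on mouse feeder cells. P-values below therefore measure the spread between these lines, and fragments from feeder cells cannot be told apart from pig fragments in a table of values per gene. The libraries held between 11010629 and 17836510 fragments. The fibroblast list (COL1A1, COL3A1, VIM and others) was lower in piPSCs for 10 of 10 genes, with a summed level of 5957 to 8601 FPKM in PEFs and 234 to 428 FPKM in piPSCs. Of 10 pluripotency markers, 6 were in the table, and NANOG, SALL4, ESRRB and ZFP42 were too low to be tested, under 1 FPKM in every library. SOX2 and LIN28B were tested and did not pass (limma adjusted p = 0.0626 and 0.0667), although all piPSC libraries lay above all PEF libraries in both. SOX2 was at 3.01, 2.49 and 0.129 FPKM in piPSC5, piPSC7 and piPSC8, and LIN28B at 2.51, 0.281 and 8.90 FPKM. The Y-linked gene DDX3Y had 0 fragments in both libraries of lines 5 and 7, 3439 fragments in PEF8 and 4207 fragments in piPSC8, although the study describes all its fibroblast lines as male.

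OXPHOS makes ATP in the inner mitochondrial membrane. Complex I (NADH dehydrogenase) and complex II (succinate dehydrogenase) pass electrons to ubiquinone, complex III hands them to cytochrome c, complex IV (cytochrome c oxidase) gives them to oxygen, and complex V (ATP synthase) uses the proton gradient so built. All of them but complex II combine subunits from nuclear genes with subunits from the mitochondrial genome, which is copied into long transcripts and then cut into single RNAs. Fibroblasts are known for active OXPHOS, and pluripotent stem cells are commonly described as relying strongly on glycolysis.

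The mitochondrial subunit genes stand so close together that some share bases, which bears on how fragments are assigned to them. The 12 genes have the same positions in the table as on the 16613-base mitochondrial genome of Sscrofa11.1. Stretches from 3 overlaps of the RefSeq sequence are shown because the genes on both sides of each were among the values below or next to them. Capitals mark the shared bases, with 15 bases on either side, all on the forward strand.
ATP8 and ATP6, MT:9105-9177: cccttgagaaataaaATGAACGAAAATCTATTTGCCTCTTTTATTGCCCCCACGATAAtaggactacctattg
ND4L and ND4, MT:11344-11380: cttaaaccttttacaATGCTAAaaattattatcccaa
ND5 and ND6, MT:14724-14770: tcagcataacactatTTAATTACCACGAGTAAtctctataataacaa
ATP8 and ATP6 share 43 bases, and ND4L and ND4 share 7. ND5 and ND6 share 17 bases at their ends and lie on opposite strands. The library kit did not keep the strand, so ND6 mRNA cannot be told apart from RNA of the other strand over that gene.

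Of the nuclear subunits, 41 of 51 could be matched to a RefSeq gene, and the 300 bases from 250 before to 50 after the start of each were searched on both strands for short motifs of factors known to control OXPHOS genes. The NRF1 core GCGCATG was in 17.1% of the subunit promoters and in 4.34% of all 19559 promoters of the same length. The ETS core CCGGAAG, which GABPA binds, was in 34.1% and 11%, and the YY1 core AAGATGG in 17.1% and 5.27%. The NFY motif CCAAT was in 24.4% of the subunit promoters and 35.4% of all, and the SP1 motif GGGCGG in 65.9% and 50.6%. A match is a description of these letters and not a binding site. Promoters of the ATP synthase genes ATP5I and ATP5O and of SDHD, a subunit of complex II, are shown as genes that rose and that hold several of the motifs. They are read from Sscrofa11.1 in the direction of the gene, with the NRF1, ETS and YY1 cores in capitals.
ATP5I, chr8:113477-113776, reverse strand: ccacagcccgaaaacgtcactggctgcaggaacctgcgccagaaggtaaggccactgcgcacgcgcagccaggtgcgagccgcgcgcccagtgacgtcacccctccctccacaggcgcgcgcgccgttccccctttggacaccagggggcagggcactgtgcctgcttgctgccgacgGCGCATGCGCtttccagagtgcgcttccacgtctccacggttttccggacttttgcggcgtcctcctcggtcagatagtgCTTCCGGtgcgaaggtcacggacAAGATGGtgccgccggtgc
ATP5O, chr13:197519481-197519780, reverse strand: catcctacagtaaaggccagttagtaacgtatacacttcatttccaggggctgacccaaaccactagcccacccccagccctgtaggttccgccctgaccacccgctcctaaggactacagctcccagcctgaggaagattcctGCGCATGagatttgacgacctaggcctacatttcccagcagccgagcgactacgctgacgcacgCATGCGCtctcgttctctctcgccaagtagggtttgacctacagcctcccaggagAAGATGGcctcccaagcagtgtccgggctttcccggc
SDHD, chr9:39790404-39790703, forward strand: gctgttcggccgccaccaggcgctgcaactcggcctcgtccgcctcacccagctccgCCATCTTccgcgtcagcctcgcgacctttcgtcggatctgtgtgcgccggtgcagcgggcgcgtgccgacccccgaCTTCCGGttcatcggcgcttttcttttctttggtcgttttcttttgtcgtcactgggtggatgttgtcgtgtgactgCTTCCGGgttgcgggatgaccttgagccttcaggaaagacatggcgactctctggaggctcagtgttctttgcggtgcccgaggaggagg
ATP5I has overlapping NRF1 cores on both strands, 1 ETS core and 1 YY1 core. ATP5O has 2 NRF1 cores and 1 YY1 core, and SDHD has 2 ETS cores and 1 YY1 core. The mRNA of NRF1 itself was at 7.44 ± 2.74 FPKM in PEFs and 6.68 ± 0.593 FPKM in piPSCs (SD, n = 3 each; log2 fold change -0.09, limma adjusted p = 0.775), and that of GABPA rose from 5.89 ± 0.317 to 13 ± 1.85 FPKM (1.01, adjusted p = 0.00368).

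Most OXPHOS subunit mRNAs were higher in piPSCs than in PEFs. Of the 62 tested, 48 rose at a limma adjusted p under 0.05, where 30.3% of all 12428 genes tested rose. Only COX6B2 and NDUFV2 fell, 2 of 62, where 21.5% of all genes fell, and 12 did not pass. With at least a 2-fold change as well, 27 rose (20.2% of all genes) and 1 fell (16.7% of all genes). In 51 of the 62 genes all piPSC libraries lay above all PEF libraries (37.3% of all genes), in 2 they lay below (26.8% of all genes), and in 9 the groups overlapped. The median log2 fold change of (FPKM + 1) was 0.93 over the subunits and 0.20 over all genes tested. When each library was rescaled so that the median gene did not move, 34 subunits rose (22.8% of all genes) and the calls over all genes turned from 3763 higher and 2667 lower to 2830 higher and 3250 lower. Scaling every library to the same sum gave 35 subunits (21.1% of all genes). The 34 were among the 48, and the 2 genes that fell did so under both scalings. The markers of fibroblasts fell in the same libraries, and their part in these differences was not tested. In RNA of whole cultures, fewer cells of a type and less RNA per cell cannot be told apart.

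**Figure D1:**
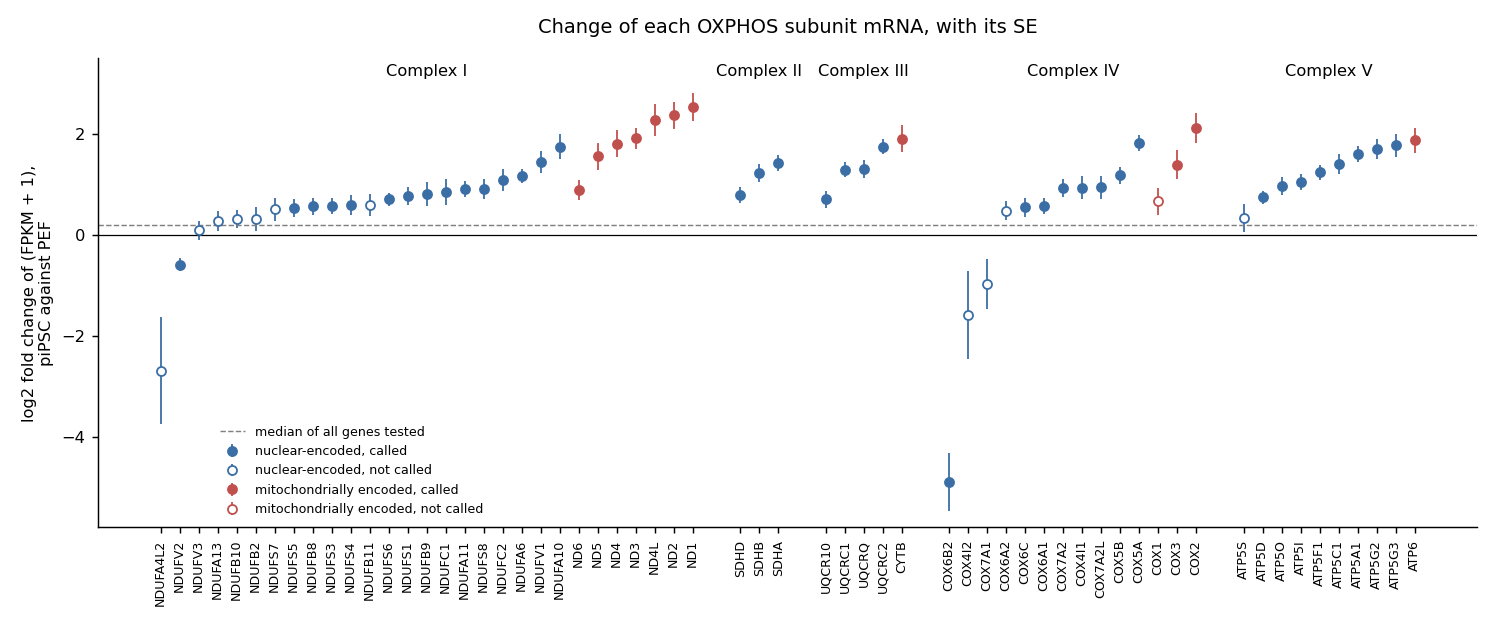
The log2 fold change of (FPKM + 1) of piPSCs against PEFs is plotted for the tested subunits (1 is left out), with 1 SE from limma, grouped by complex and coloured by genome of origin (filled, adjusted p under 0.05). Most points lie above the dashed median of all genes (0.20), the mitochondrially encoded genes reach 2.54, and COX6B2 stands at -4.91. NDUFA4L2 is placed under complex I and ATP5S under complex V by their symbols.

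The median rise was larger for the mitochondrially encoded mRNAs than for the nuclear ones. Of 12 genes, 11 rose (30.3% of all genes), 10 of them at least 2-fold (20.2% of all genes). The median log2 fold change was 1.89, against 0.80 for the 50 nuclear subunits tested. After quantile normalization these medians were close, at 0.89 and 0.82. In all 12, every piPSC library lay above every PEF library (37.3% of all genes). They code for 7 subunits of complex I (ND1 to ND6 and ND4L), cytochrome b of complex III (CYTB), the 3 catalytic core subunits of complex IV (COX1 to COX3) and a proton channel subunit of complex V (ATP6).

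ND1, the complex I subunit at the start of this gene order, was at 767, 529 and 1038 FPKM in PEF5, PEF7 and PEF8 and at 4600, 3904 and 4594 FPKM in the piPSC lines. It was highest in PEF8 among the fibroblasts, and the groups were far apart. It rose by 2.54 on the log2 scale (SE 0.28, limma adjusted p = 0.000849), the largest rise among the subunits chosen by name. ND2 rose by 2.37, ND4L by 2.28, ND3 by 1.91, ND4 by 1.81 and ND5 by 1.56, with adjusted p-values between 0.000878 and 0.00366. ND6, the only subunit coded on the other strand, was at 1378, 1165 and 1472 FPKM in PEFs and 2188, 2864 and 2421 FPKM in piPSCs. Its rise of 0.89 (SE 0.20, adjusted p = 0.0107) was the smallest among the mitochondrial genes that passed.

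CYTB, the electron-carrying core of complex III, was at 1300, 1367 and 2143 FPKM in PEFs and at 5785, 4979 and 7051 FPKM in piPSCs. Line 8 was highest in both groups, and the groups did not overlap (log2 fold change 1.91, SE 0.28, adjusted p = 0.00213). ATP6 went from 3118, 3529 and 4191 FPKM to 13054, 11629 and 15097 FPKM (1.88, SE 0.25, adjusted p = 0.00149). Line 8 was again highest in each group.

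The 3 mitochondrial genes of complex IV did not move alike. COX2, which takes electrons from cytochrome c, was at 4188, 3488 and 6090 FPKM in PEFs and 20352, 17459 and 20835 FPKM in piPSCs. All piPSC libraries were well above PEF8, the highest fibroblast library (log2 fold change 2.13, SE 0.30, adjusted p = 0.00188). COX3 went from 9390, 8504 and 11610 FPKM to 23832, 23118 and 30300 FPKM (1.39, SE 0.29, adjusted p = 0.00789), and without piPSC8 its adjusted p was 0.0631. COX1, the catalytic subunit, was at 12247, 11057 and 12183 FPKM in PEFs and 15975, 21836 and 18983 FPKM in piPSCs. The groups did not overlap for COX1 either, but the difference did not pass (0.67, SE 0.27, adjusted p = 0.0767), and quantile normalization turned it to -0.78 (adjusted p = 0.0457). It passed as higher under 4 other settings, with adjusted p-values of 0.0395 at a mean FPKM of at least 1, 0.0499 per fragment outside mitochondrial genes, 0.024 without the trend and 0.0192 with voom. Quantile normalization also ended the calls of ATP6 (log2 fold change 0.12), COX3 (0.28), COX2 (0.55) and ND4 (0.81), with adjusted p-values from 0.0811 to 0.681. Without the filter on low values the calls of these 4 genes and of ND6 were lost as well, with adjusted p-values from 0.0786 to 0.566.

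**Figure D2:**
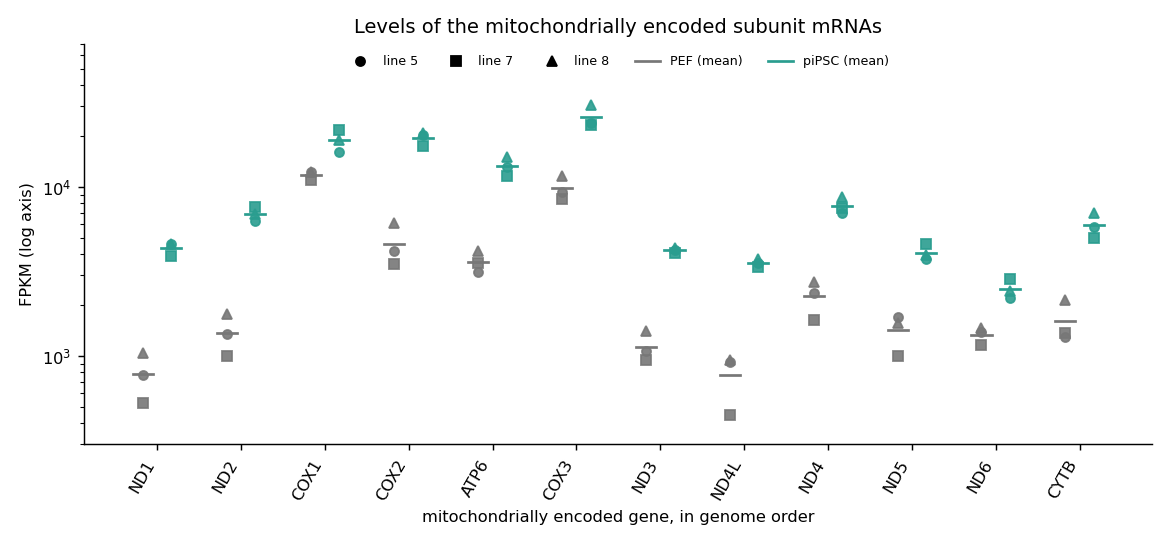
FPKM on a log axis is plotted for the 12 mitochondrially encoded subunit genes in genome order, with 1 symbol per line, PEFs in grey, piPSCs in green and a bar at each group mean. The groups are separate in all 12 genes and closest in COX1, ND6 and COX3, and COX1 is the highest gene in PEFs and COX3 in piPSCs.

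COX1 made up less of the mitochondrial mRNA in every piPSC library than in any PEF library. Ratios within a library do not depend on how libraries were scaled. COX1 took 44.4%, 46.4% and 38.9% of the fragments on the 12 genes in PEF5, PEF7 and PEF8 and 23.7%, 30.2% and 24.4% in piPSC5, piPSC7 and piPSC8. All piPSC libraries were below all PEF libraries, with means of 43.2 ± 3.90% and 26.1 ± 3.57% (SD, n = 3 each; exact permutation test, two-sided, p = 0.1, the smallest p that 3 against 3 allows). The ratio of COX1 to COX2 FPKM was 2.92, 3.17 and 2.00 in PEFs and 0.785, 1.25 and 0.911 in piPSCs, again without overlap (exact p = 0.1). The ratio of COX1 to ND1 was 16, 20.9 and 11.7 in PEFs and 3.47, 5.59 and 4.13 in piPSCs. The ratio of ND6 to ND5, a pair on opposite strands, was 0.809, 1.17 and 0.945 in PEFs and 0.587, 0.627 and 0.614 in piPSCs (exact p = 0.1). A ratio shows that the pair changed unequally and not which of the pair moved. ND5 to ND4, neighbours on the same strand, overlapped between the groups (0.724, 0.605 and 0.567 in PEFs, 0.529, 0.610 and 0.454 in piPSCs, exact p = 0.3).

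As a share of all fragments, the 12 mitochondrial genes took 4.26%, 3.68% and 4.84% in PEFs and 10.4%, 11.2% and 12% in piPSCs. The means were 4.26 ± 0.580% and 11.2 ± 0.822% (SD, n = 3 each; exact permutation test, two-sided, p = 0.1, the smallest p possible), and the difference was 6.13, 7.49 and 7.20 percentage points in lines 5, 7 and 8. Of all genes in piPSCs, mitochondrial ones held ranks 1 to 3 by mean FPKM (COX3, COX2 and COX1) and ranks 5 to 13, where in PEFs they ran from rank 1 (COX1) to rank 47 (ND4L). The 51 nuclear subunits took 0.445%, 0.483% and 0.423% of all fragments in PEFs and 0.850%, 1.01% and 0.922% in piPSCs (exact p = 0.1). Because the mitochondrial genes took more of each piPSC library, dividing by the fragments outside them raised the nuclear median log2 fold change from 0.80 to 0.91.

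**Figure D3:**
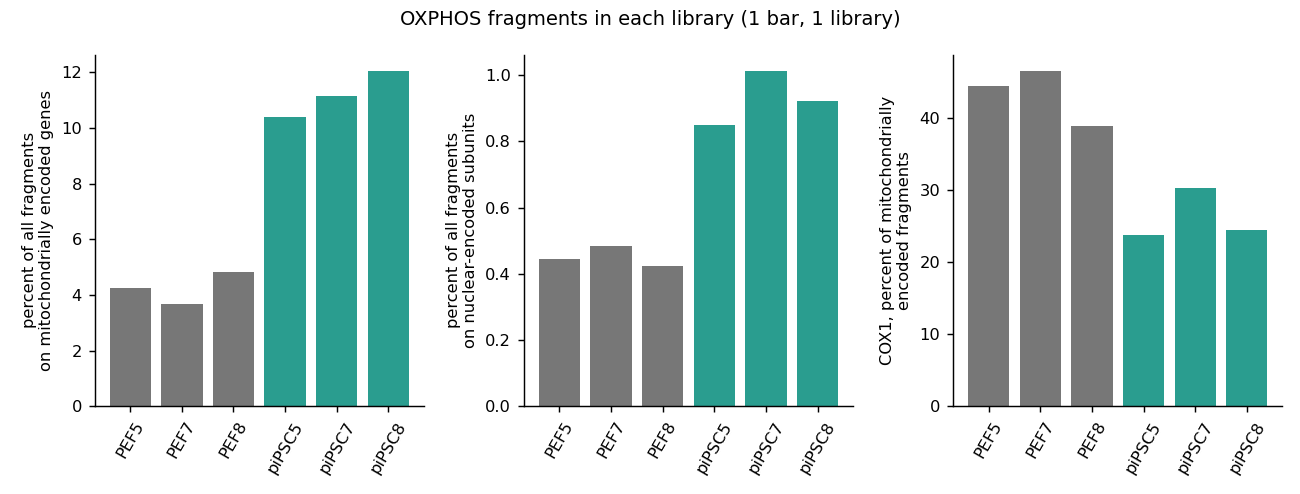
Bars from 0 give, for each of the 6 libraries, the percent of fragments on the 12 mitochondrial subunit genes, the percent on the 51 nuclear subunits and the percent of the mitochondrial fragments that were COX1. The first 2 shares are higher in every piPSC library (10.4 to 12% against 3.68 to 4.84%, and 0.850 to 1.01% against 0.423 to 0.483%), and the COX1 share is lower in every one.

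Both origins were then set side by side within each library. Summed FPKM of the mitochondrial genes was 17.9, 14.1 and 21.6 times that of the nuclear subunits in PEFs and 25.9, 21.5 and 27.4 times in piPSCs. The ratio was higher in each piPSC line than in its PEF line, but piPSC7 lay just under PEF8 and the groups overlapped (exact permutation test, two-sided, p = 0.2). The log2 ratio of nuclear to mitochondrial level changed by -0.49, and by -1.06 where medians of log2(FPKM + 1) replaced sums, without overlap (exact p = 0.1). Within complex I the ratio of the mitochondrial to the nuclear median was 51.6, 29.3 and 56.6 in PEFs and 124, 108 and 94.6 in piPSCs (exact p = 0.1). Within complex IV it was 206, 193 and 286 against 339, 328 and 392 (exact p = 0.1), and the groups overlapped in complexes III and V (exact p = 0.4 and 0.2). These are 4 ratios of one kind, and no p below 0.1 was possible for any.

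Among the 50 nuclear subunits tested, 37 rose (30.3% of all genes), 2 fell (21.5% of all genes) and 11 did not pass. In line 5, 44 of the 50 were higher in the piPSC than in its own PEF by any amount, and 45 in each of lines 7 and 8, where 57.5%, 58.5% and 52.2% of all genes were. In 43 the piPSC was higher in every line (42.9% of all genes), and in 4 it was lower in every line (31.6% of all genes). These counts of 1 library against 1 have no replicate check. The nuclear median was 1.22 for complex II, 1.30 for complex III and 1.24 for complex V, and 0.59 for complex I and 0.57 for complex IV. These medians cover only the subunits chosen by name. Complex II lacks SDHC, and complex IV includes the tissue isoforms COX4I2, COX6A2, COX6B2 and COX7A1. Subunits listed by identifier only, given further on, had medians of 0.83 in complex I and 0.33 in complex II (SDHC alone). In complexes III, IV and V they had medians of 2.03, 1.46 and 0.75.

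Complex I had 23 nuclear subunits in the test, of which 15 rose, 1 fell (30.3% and 21.5% of all genes) and 7 did not pass. Complexes were read from gene symbols, so the counts and medians of complex I include NDUFA4L2, which did not pass. Its relative NDUFA4 was counted in complex IV. NDUFA10, an accessory subunit, was at 47.3, 69.9 and 42.2 FPKM in PEFs and 146, 173 and 220 FPKM in piPSCs. It was the largest rise of the complex outside the mitochondrial genome (log2 fold change 1.75, SE 0.25, adjusted p = 0.00191). NDUFV1, which holds the site where NADH is oxidised, went from 4.23, 5.70 and 3.43 FPKM to 11.7, 13.9 and 15.4 FPKM. The libraries did not overlap, at 1.44 (SE 0.22, adjusted p = 0.00248). NDUFA6 (1.17) and NDUFC2 (1.09) were the other nuclear complex I subunits that rose at least 2-fold.

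NDUFV2, the partner of NDUFV1 in the NADH-oxidising module, moved the other way. It was at 23.1, 22.2 and 23.8 FPKM in PEFs and 15.1, 14.8 and 14.9 FPKM in piPSCs. Every piPSC line was below every PEF line with little spread in either group, and the fall was by 0.59 on the log2 scale (SE 0.13, adjusted p = 0.0105). The fall passed under all 16 alternative settings, with adjusted p-values from 0.0029 to 0.038. NDUFV3, another subunit of that module, was at 6.97 ± 1.18 FPKM in PEFs and 7.46 ± 0.806 FPKM in piPSCs and did not pass (adjusted p = 0.701). Its small log2 fold change of 0.09 turned to -0.15 and -0.21 under the rescalings.

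The NDUFS subunits rose by less than 2-fold or did not pass. NDUFS8 rose by 0.92, NDUFS1 by 0.78 and NDUFS6 by 0.70, with adjusted p-values from 0.00425 to 0.0124. After median-ratio rescaling NDUFS8 (adjusted p = 0.0537) and NDUFS1 (0.055) did not pass, nor did NDUFS1 with equal sums (0.0795). NDUFS4 rose by 0.59 (adjusted p = 0.0425), but its adjusted p was 0.0713 with the line as a replicate block. NDUFS7 was at 4.72, 8.73 and 5.85 FPKM in PEFs and 8.55, 9.53 and 9.84 FPKM in piPSCs, where PEF7 overlapped the piPSC libraries (adjusted p = 0.111). NDUFA13, NDUFB2, NDUFB10 and NDUFB11 did not pass either, with log2 fold changes from 0.28 to 0.59 and adjusted p-values from 0.0516 to 0.301. NDUFS8 overlaps ALDH3B1 on the same strand, which was at 23.0 FPKM in PEFs and 1.46 FPKM in piPSCs. NDUFS1 shares 611 bases with EEF1B2 on the opposite strand, which was at 49.1 FPKM in PEFs and 142 FPKM in piPSCs. How shared fragments were counted is not given in the sources used here, and the part of these neighbours in the values was not tested.

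Complex II is built from nuclear genes alone, and the named subunits in the table all rose. SDHA, the flavoprotein that oxidises succinate, was at 75.5, 60.8 and 81.0 FPKM in PEFs and 183, 189 and 214 FPKM in piPSCs. The lowest piPSC library was more than double the highest PEF library in level. It rose by 1.43 (SE 0.16, adjusted p = 0.000936). SDHB, the iron-sulphur subunit, went from 30.7, 38.3 and 35.6 FPKM to 67.3, 89.5 and 92.6 FPKM (1.22, adjusted p = 0.00224). SDHD, a membrane anchor, went from 41.7, 42.5 and 52.8 FPKM to 74.0, 90.7 and 74.0 FPKM (0.79, adjusted p = 0.00804). SDHC, the other anchor, is listed by identifier only and is given further on. SDHA overlaps CCDC127, which stood at 27.2 FPKM in PEFs and 14.3 FPKM in piPSCs.

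In complex III all 4 nuclear subunits tested rose (30.3% of all genes). UQCRC2, a core protein, was at 28.3, 23.6 and 23.3 FPKM in PEFs and 78.4, 87.1 and 94.6 FPKM in piPSCs (log2 fold change 1.75, SE 0.15, adjusted p = 0.000426). Its partner core protein UQCRC1 rose by 1.30, UQCRQ by 1.31 and UQCR10 by 0.70, with adjusted p-values from 0.000903 to 0.0145. Under the rescalings UQCR10 did not pass (adjusted p = 0.0775 and 0.0988). The libraries of both groups were apart in each of the 4 subunits.

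In complex IV, 11 nuclear subunits were tested, of which 7 rose, 1 fell (30.3% and 21.5% of all genes) and 3 did not pass. COX5A showed the largest rise of the nuclear subunits chosen by name. It was at 52.8, 57.5 and 58.5 FPKM in PEFs and 173, 232 and 205 FPKM in piPSCs, so the fibroblast lines were close together and all far below the piPSC lines (1.83, SE 0.16, adjusted p = 0.000416). COX5B rose by 1.18 (adjusted p = 0.00204), from 80.8 ± 8.95 to 186 ± 26.9 FPKM. COX6C rose by 0.55 (adjusted p = 0.0448), with an adjusted p of 0.065 under the replicate block. COX7A2L, which takes part in joining complexes III and IV, rose by 0.94 (adjusted p = 0.0133). Under the rescalings COX7A2L did not pass (adjusted p = 0.0614 and 0.0561). The row named COX7B was not tested. It is a 126-base feature on chromosome 5 inside ALDH1L2 and was listed at 0 in all libraries but piPSC7 (0.667 FPKM).

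In complex V, 8 of the 9 nuclear genes placed there by symbol rose (30.3% of all genes). ATP5A1, a subunit of the catalytic head, was at 209, 173 and 178 FPKM in PEFs and 533, 628 and 539 FPKM in piPSCs. It had the highest mean level of the nuclear subunits chosen by name, and its libraries were far apart (1.60, SE 0.16, adjusted p = 0.000586). The stalk subunit ATP5C1 rose by 1.40, ATP5F1 by 1.24 and ATP5D by 0.75, with adjusted p-values from 0.000998 to 0.00414. The membrane ring is made of identical c subunits that several genes encode. Of these, ATP5G3 went from 58.8, 58.6 and 40.8 FPKM to 156, 234 and 163 FPKM (1.78, adjusted p = 0.00139), and ATP5G2 went from 38.6, 40.7 and 25.8 FPKM to 116, 120 and 107 FPKM (1.70, adjusted p = 0.00105). ATP5I rose by 1.05 and ATP5O by 0.97 (adjusted p = 0.00232 and 0.0047), the genes whose promoters are printed above. ATP5S, which now carries the symbol DMAC2L, was at 2.19 ± 0.779 FPKM in PEFs and 3.03 ± 0.861 FPKM in piPSCs and did not pass (adjusted p = 0.336). It was placed in complex V by its older symbol, and the count and median of the complex include it.

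Some subunits of complex IV exist as isoforms from separate genes, a widely expressed one and one tied to muscle, lung, testis or low oxygen. The widely expressed forms COX4I1 (0.94, adjusted p = 0.0139), COX6A1 (0.57, adjusted p = 0.0221) and COX7A2 (0.94, adjusted p = 0.00581) rose. Under the rescalings COX4I1 did not pass (adjusted p = 0.0723 and 0.0543), nor did COX6A1 (0.197 and 0.195), which also missed the threshold without PEF5, piPSC7 or piPSC8 (0.0529 to 0.066). COX4I1 was at 141, 209 and 129 FPKM in PEFs and 264, 349 and 294 FPKM in piPSCs, with line 7 highest in both groups. It shares 1172 bases with EMC8 on the opposite strand, which was at 9.58 FPKM in PEFs and 22.8 FPKM in piPSCs. The part of EMC8 in the COX4I1 values was not tested.

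COX6B2, known as the testis form of COX6B, had the largest fall. It was at 72.3, 30.4 and 12.5 FPKM in PEF5, PEF7 and PEF8, from 1397, 551 and 206 fragments, and at 0, 0.155 and 0 FPKM in piPSC5, piPSC7 and piPSC8, from 0, 2 and 0 fragments. The fibroblast lines differed among themselves, but each was above every piPSC line (log2 fold change -4.91, SE 0.57, adjusted p = 0.00103). A count of 0 was taken as up to 3 fragments, a set floor without a confidence level, and the PEF count as exact. On that floor COX6B2 was at least 393-fold lower in line 5 and at least 49.9-fold lower in line 8. In line 7 the ratio of PEF to piPSC was 196 (95% exact interval 54.0 to 1623). Over all lines 2154 fragments stood against 2, a ratio of 822 (227 to 6796) for the depth of the libraries, and 451 (124 to 3730) without PEF5. These bounds and intervals cover counting error only.

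The remaining isoforms were uneven between lines, and none passed. NDUFA4L2, a relative of NDUFA4 that is known to respond to low oxygen, was at 21.8, 50.4 and 1.37 FPKM in PEFs and 1.07, 0.648 and 2.01 FPKM in piPSCs. PEF8 was as low as the piPSC lines and piPSC8 was above it, so the groups overlapped (-2.69, SE 1.06, adjusted p = 0.072). Without PEF8 the difference passed (-3.98, adjusted p = 0.00303).

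COX4I2, the form of COX4 known from lung and from low oxygen, was at 8.17, 17.9 and 1.30 FPKM in PEFs and 1.31, 4.59 and 0.138 FPKM in piPSCs. PEF8 was again the low fibroblast line, and each piPSC line was below its own PEF line (-1.59, SE 0.88, adjusted p = 0.170). With the line as a replicate block it passed (adjusted p = 0.0122), as it did without PEF8 (-2.43, adjusted p = 0.0436). It lies wholly inside BCL2L1 on the opposite strand, which was at 7.44 FPKM in PEFs and 1.88 FPKM in piPSCs, and that gene's part in the difference was not tested.

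COX7A1, the heart and muscle form, was at 3.28, 5.90 and 7.59 FPKM in PEFs and 1.92, 5.36 and 0.821 FPKM in piPSCs. Here piPSC7 lay among the PEF lines (-0.97, SE 0.50, adjusted p = 0.144), and without it the difference passed (-1.46, adjusted p = 0.0296). COX7A1 shares 1382 bases with CAPNS1 on the opposite strand, which was at 115 FPKM in PEFs and 52.5 FPKM in piPSCs. The part of that gene in the difference was not tested. COX6A2, another muscle form, was at 8.08 ± 1.24 and 11.6 ± 1.43 FPKM (0.48, adjusted p = 0.0637). Skeletal muscle markers were low in PEFs, with a summed level of 0.0814 to 0.755 FPKM, and reached 14.2 FPKM in piPSC7, where desmin (DES) made up nearly all of it. CKM, MYOD1, MYF5 and MYH3 were under 1 FPKM in every library.

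**Figure D4:**
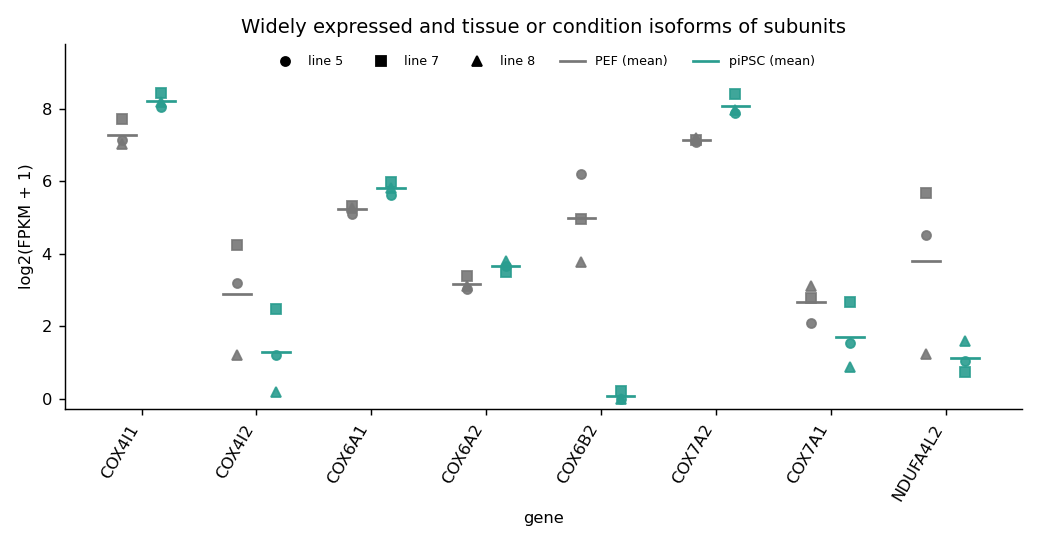
Values of log2(FPKM + 1) are plotted for 8 isoform genes in each line (circles line 5, squares line 7, triangles line 8), PEFs in grey and piPSCs in green, with bars at the group means on this scale. COX4I1, COX6A1 and COX7A2 are higher in piPSCs, COX6B2 is at 0 or close to it in all piPSC lines, and NDUFA4L2 and COX4I2 are lowest in PEF8 among the fibroblasts.

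A further 17 subunits stand in the table by identifier only and so fall outside the naming rule. They were picked out from a table of identifiers after values had been seen. Of these, 13 rose and 0 fell (30.3% and 21.5% of all genes), 4 did not pass, and the median log2 fold change was 0.87 (0.20 over all genes). UQCR11 (ENSSSCG00000013436), a small subunit of complex III, was at 45.3, 54.1 and 47.7 FPKM in PEFs and 344, 408 and 415 FPKM in piPSCs. That rise of 2.96 on the log2 scale (SE 0.15, adjusted p = 0.00013) exceeded that of every named subunit. The COX7B gene on chromosome X rose by 1.68, NDUFA4 by 1.47 and COX8A by 1.44. SDHC was at 24.3 ± 6.76 FPKM in PEFs and 30.3 ± 2.44 FPKM in piPSCs and did not pass (adjusted p = 0.227), so complex II rose in 3 of its 4 subunits. NDUFB1, NDUFB4 and ATP5MK did not pass either.

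Most genes that copy, cut and keep mitochondrial RNA rose. Of 25 tested, 21 rose and 0 fell (30.3% and 21.5% of all genes), with a median log2 fold change of 0.91. Under each of the rescalings 13 rose (22.8% of all genes with median ratios, 21.1% with equal sums). Without piPSC5 or piPSC8 14 did (22% and 28.9% of all genes). LRPPRC, which with SLIRP holds mitochondrial mRNAs stable, went from 12.8 ± 2.08 to 119 ± 34.8 FPKM (SD, n = 3 each; 3.09, adjusted p = 0.000356), and SLIRP rose by 1.15. ELAC2, which cuts the ends of mitochondrial tRNAs, rose by 2.79, and PNPT1, of the mitochondrial RNA degradosome, by 2.32. TWNK, the DNA helicase, rose by 2.09, TFAM, which packs mitochondrial DNA and starts its transcription, by 1.73, and the RNA polymerase POLRMT by 1.67. Those that did not pass were POLG2, FASTKD1, FASTKD2 and TOP1MT.

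Regulators of mitochondrial biogenesis were mixed. Of 11 tested, 4 rose and 1 fell, a share of rises near that of all genes (30.3% and 21.5% of all genes). PPARGC1B, a coactivator, went from 0.261 ± 0.175 to 8.78 ± 2.76 FPKM (2.92, adjusted p = 0.000525), and its relative PPRC1 rose by 1.75. The orphan receptor ESRRA rose by 1.17. PPARGC1A, the best known member of that family, was at 0.198 ± 0.193 FPKM in PEFs and 0.942 ± 0.851 FPKM in piPSCs and did not pass (adjusted p = 0.243). TFE3, also a regulator of lysosomal genes, fell by 2.14 on the log2 scale, from 47.3 ± 9.54 to 10.1 ± 2.87 FPKM (adjusted p = 0.00103).

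Assembly factors, which build the complexes and are not part of them, rose in 24 of 37 tested and fell in 0 (30.3% and 21.5% of all genes). Over the alternatives 17 to 26 rose (19.8% to 33.5% of all genes) and 0 to 3 fell (14.7% to 27.2%). Each rescaling gave 18 higher and 3 lower. Of all genes, median ratios gave 22.8% higher and 26.2% lower, and equal sums 21.1% and 27.2%. The largest were SCO1 (2.02), which brings copper to complex IV, and the complex I factors NDUFAF4 (1.85), NDUFAF7 (1.84) and ACAD9 (1.75). COX17, another copper carrier, was uneven in piPSCs, at 258 ± 162 FPKM against 74.9 ± 15.6 FPKM in PEFs (1.62, adjusted p = 0.0164).

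Of the pathways that feed OXPHOS, the tricarboxylic acid cycle had 13 of 15 genes that rose and 0 that fell (30.3% and 21.5% of all genes), with a median of 1.33, among them IDH2 (1.99), MDH2 (1.72), the entry enzyme citrate synthase CS (1.72, 30.8 ± 2.26 to 104 ± 3.78 FPKM) and DLD (1.63). OGDH was at 65.3 ± 6.17 and 52.5 ± 1.35 FPKM (-0.31, adjusted p = 0.0974) and SUCLA2 did not pass. For pyruvate entry, 6 of 12 rose and 0 fell (30.3% and 21.5% of all genes). These included DLAT (1.72) and PDHA1 (1.71) of the pyruvate dehydrogenase complex and also PDK1 (1.39) and PDK3 (1.64), kinases known to switch that complex off. Of cytochrome c, the carriers and the porins, 5 of 10 rose and 0 fell (30.3% and 21.5% of all genes). The porin VDAC2 rose by 1.72, the ADP/ATP carrier SLC25A5 by 1.59 and cytochrome c, CYCS, by 1.27, and VDAC1, VDAC3 and SLC25A4 did not pass. Of OXPHOS factors whose names the rule leaves out, 5 of 7 rose and 0 fell (30.3% and 21.5% of all genes), among them DMAC1 (1.71) and CHCHD2 (1.41). A longer list of isoforms also held COX7A2L, COX7B, COX8A, NDUFA4 and the c subunit genes. The list gave 10 higher and 1 lower (COX6B2) of 15 tested (30.3% and 21.5% of all genes). Its genes are all among the subunits counted above, and COX4I2, COX6A2, COX7A1 and NDUFA4L2 were not among the 10. Under each of the rescalings 7 were higher (22.8% of all genes with median ratios, 21.1% with equal sums). Without PEF8 3 were lower (19.1% of all genes).

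**Figure D5:**
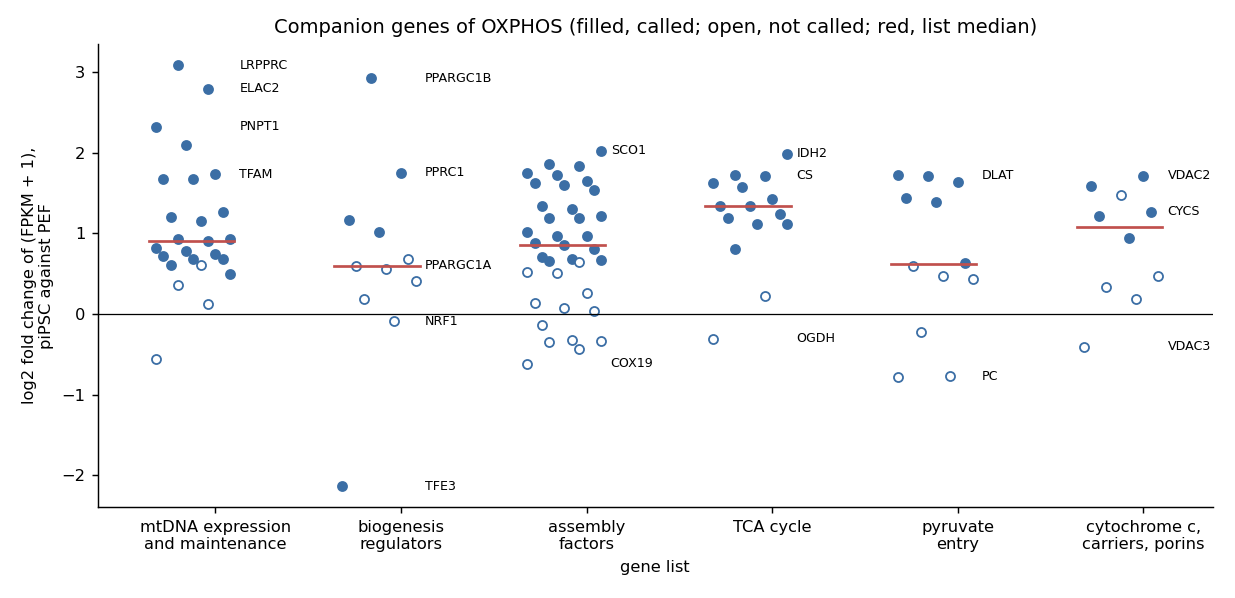
Each point is the log2 fold change of (FPKM + 1) of 1 gene, piPSCs against PEFs, in 6 lists of genes that work with OXPHOS (filled, limma adjusted p under 0.05; open, not passing), and a red bar marks the list median. All medians are above 0, LRPPRC (3.09) and PPARGC1B (2.92) are the highest points, and TFE3 (-2.14) is the only filled point below 0.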

How the data were processed

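FPKM values per gene of 3 PEF and 3 piPSC libraries (poly-A RNA, unstranded, 150 bp paired ends) were used as the authors deposited them. The submitters' processing notes name Bowtie2 2.2.3, HISAT2 2.1.0, HTSeq 0.6.0 and Sscrofa11.1. The annotation release and the handling of shared reads are not given in the sources used here. With the smallest gene length that fits every library, each value came to a whole number of fragments within 0.001 of a fragment plus an allowance for rounding that grows with the count, so fragments were recovered for 18007 genes (100%), with totals from 11010629 to 17836510 per library.

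Values were tested as log2(FPKM + 1) with limma 3.58.1 in R 4.3.3 (eBayes with trend, two-sided) over 12428 genes (mean FPKM 0.5 or more), with Benjamini-Hochberg adjustment. Folds are on that scale, which understates changes of low genes. The fit was tested on simulated data. Per-library values were compared with exact permutation tests in scipy 1.17.1. Means are given ± SD over 3 lines.

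The subunits, lists and tests were chosen with earlier results of these data known. Genes were named by rule: every mitochondrial gene, subunits called with at least a 2-fold change, the highest and most changed subunits of each complex, isoforms, SDH subunits, up to 4 genes per companion list and 7 set regulators and enzymes. Others were named after their values were seen. The values of 1 subunit, which the counts include, are not reported here. Equal numbers mark a PEF line and its own piPSC derivative, and the correlation of their deviations from the group means was 0.0921, 0.0946 and 0.08. Between lines of different number it was lower, from -0.121 to 0.0553. The line as a replicate block, other pseudocounts, filters and scalings, no trend, voom on recovered fragments and leaving out each library were the alternatives.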

Additional observations from a re-analysis of the deposited data

How the results depend on the processing

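Over the 16 alternatives, the number of subunits that rose ran from 34 to 51 (48 as reported). The share of all genes that rose ran from 19.8% with no filter to 33.5% per fragment outside mitochondrial genes. Of the 48 subunits, 29, 23 of them nuclear, passed in every alternative. The 2 that fell did so in all 16. The replicate block left 46 higher (28% of all genes), without NDUFS4 and COX6C. It gave 3 lower (19.7% of all genes), 2 of them by at least 2-fold, with COX4I2 added. It changed no other call of a subunit. Leaving out 1 library gave 2 to 4 lower (4 without PEF8), where 16.8% to 20.1% of all genes were lower. By at least 2-fold, 1 to 3 were lower (3 without PEF8). In these fits 10 subunits that rose lost the call at least once, among them COX3, COX6A1, COX6C, NDUFB8, NDUFB9, NDUFC1, NDUFS3, NDUFS4 and NDUFS5. The calls lost numbered 9 without PEF5, 6 without PEF7, 4 without PEF8, 7 without piPSC5, 6 without piPSC7 and 7 without piPSC8, and NDUFS7 passed without PEF7. In 1 or both of the rescalings 14 subunits that rose lost the call, among them COX4I1, COX6A1, COX6C, COX7A2L, NDUFS1, NDUFS4, NDUFS8 and UQCR10. The nuclear median log2 fold change was 0.53 after median-ratio rescaling, 0.49 with equal sums and 0.91 per fragment outside mitochondrial genes, and 0.74 to 0.82 without 1 library. The mitochondrial median was 0.89 after quantile normalization, where the nuclear median was 0.82. It was 1.63 and 1.57 under the rescalings and 1.78 to 2.03 without 1 library. Those rescalings moved the median of all genes from 0.20 to -0.01 and -0.06. The mitochondrial share rose by 15.3 points as a share of summed FPKM, and by 6.52 to 7.34 points without 1 library. The nuclear-to-mitochondrial log2 ratio changed by -1.06 with medians, and by -0.64 to -0.33 without 1 library. COX1 passed as higher under 4 alternatives and turned to -0.78 after quantile normalization, NDUFV3 to -0.0026 there and to -0.15 and -0.21 under the rescalings, and NDUFA13 to -0.038 with equal sums. The causes were not tested. With no filter on low values, 40 subunits rose (19.8% of all genes).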

Other observations

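The rRNAs of the mitochondrial ribosome come from the same genome and were in the table, although the libraries were selected for poly-A tails. The 16S rRNA gene (MT, 2274 to 3844) was at 56.8, 72.6 and 108 FPKM in PEFs and 397, 747 and 373 FPKM in piPSCs, and all piPSC libraries were above all PEF libraries (log2 fold change 2.64, SE 0.35, limma adjusted p = 0.00149). The 12S rRNA gene (MT, 1246 to 2205) was at 99.6, 76.1 and 199 FPKM in PEFs and 207, 496 and 326 FPKM in piPSCs (1.48, SE 0.44, adjusted p = 0.0299). Here piPSC5 lay just above PEF8. With both rRNAs added, the mitochondrial share of fragments was 4.29 ± 0.589% in PEFs and 11.3 ± 0.826% in piPSCs.

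The nuclear subunits differed widely in level. Over 45 of them, without the tissue isoforms, mean FPKM ran from 2.61 to 377, and levels were lower where the gene model was longer. The 23 shortest models had a median of 88.0 FPKM and the 22 longest 31.7 FPKM, and across these genes Spearman's rho between length and level was -0.64 and Pearson's r on log2 values -0.59. Across all 12428 genes tested rho was -0.08. Genes are not independent replicates, and the points share libraries and annotation. FPKM also divides by this same length, which was itself recovered from the FPKM values. The part of that division in the relation was not tested. NDUFC1, at 2.17 FPKM in PEFs, has a model of 4042 bases, NDUFV1 one of 4775 and NDUFS3 one of 5829, while ATP5I has 432. Length tracked the change less, with a rho of -0.22 between length and log2 fold change.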
